A study of Mus musculus with 12 samples.

Results

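Rab proteins are small GTPases of the Ras superfamily that direct membrane traffic: each sits on particular compartments, and in its GTP-bound form recruits the effectors that move, tether and fuse vesicles there. Most Rab proteins reach their membranes only after geranylgeranyl lipids have been attached to cysteines at their carboxyl end. Rab geranylgeranyl transferase does this with the help of a Rab escort protein, and GDP dissociation inhibitors (GDIs) later lift the proteins off again. Statins block HMG-CoA reductase, the enzyme at the head of the mevalonate pathway that also makes these lipids, and neurons use Rab proteins for synaptic vesicle release and for carrying membrane along the axon. The genes described here were chosen by name, as Rab followed by a number and, where present, a letter, and each needed 10 or more counts in 3 of the 9 libraries that could be read. The deposited tables hold 59 such genes among 25655, and 56 of them met the minimum, as did 15322 of all genes. Rab17, Rab25 and Rab44 did not, each with 9 counts or fewer in every library.

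The libraries were made from whole mouse retinas collected 2 days after crush of the left optic nerve (ONC), an injury that cuts the axons of retinal ganglion cells. The mice were C57BL/6 wild type, given as C57BL/6J in the treatment protocol, and 8 to 10 weeks old. A single intravitreal injection followed the crush, of PBS as the control, of fluvastatin, of matrix-bound nanovesicles (MBV) prepared from porcine urinary bladder, or of MBV and fluvastatin together, with 3 samples per group. All 4 groups thus had the crush and an injection, and no uninjured retina was analysed here. The combined treatment was not analysed here, since its count columns carry no library name. The labels number the PBS and the fluvastatin libraries 1 to 3 each, and the combined and the MBV libraries 4 to 6 each. In sample order they are read here as 2 sets of 6, PBS with combined and fluvastatin with MBV. No label names a set, and the numbers alone would also allow PBS with MBV. On the reading used here, each single treatment cannot be told apart from the library set when it is set against PBS. Fluvastatin and MBV then share a set. Nothing in the labels says that the 3 samples of a group came from separate animals, so p-values measure the spread between these samples.

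Library totals ran from 21349516 to 30992040 gene counts, and the Rab genes took 0.318% to 0.344% of them. Photoreceptor markers, which define most of the retina's cells, summed to 32248 to 49695 counts per 1000000 (CPM) and ganglion cell markers to 655 to 941 CPM, with no marker of either list at 3 counts or fewer throughout a group. Markers of the lens were at 0.532 to 5.30 CPM in PBS, 1.91 to 20.1 CPM with fluvastatin and 60.7 to 147 CPM with MBV, where all 6 were higher. Of 6 Muller glia markers, 4 were lower with fluvastatin and 2 with MBV, and of 9 ganglion cell markers 2 were higher with fluvastatin and 1 lower with MBV. Over the 15322 genes at the minimum, 11.4% were higher and 12.4% lower with fluvastatin, and 14.7% and 17.2% with MBV. All CPM values were scaled by TMM over the 9 libraries, and log2 fold changes come from edgeR's quasi-likelihood test of the groups compared, with the false discovery rate (FDR) adjusted over all genes tested. In whole tissue, fewer cells of a type and less RNA per cell cannot be told apart.

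The prenylated end is written in the last codons of each gene, and these are shown for 10 members whose level changed or whose class of end differs. Each is the last 30 coding bases before the stop codon in GRCm39, 5′ to 3′ on the coding strand, with cysteine codons in capitals.
Rab2a, chr4:8606471-8606500, plus strand: ggcggacagcaggcagggggaggcTGCTGT
Rab5a, chr17:53813425-53813454, plus strand: cagccagccagaagccagTGTTGTagtaac
Rab5b, chr10:128515402-128515431, minus strand: cagcagaacaagagccagTGTTGTagcaac
Rab11a, chr9:64624134-64624163, minus strand: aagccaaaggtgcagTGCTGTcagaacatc
Rab3c, chr13:110198352-110198381, minus strand: cctcctccaccacagcccaacTGTggcTGC
Rab6b, chr9:103058413-103058442, plus strand: cccccggccagcgagggcggcTGCtccTGT
Rab33b, chr3:51401185-51401214, plus strand: gagaccaagcctgcggtgactTGCtggTGC
Rab8b, chr9:66755004-66755033, minus strand: aagaccagtttcttccgcTGTtctctgctt
Rab28, chr5:41783116-41783145, minus strand: cctcctcggagctccatgTGTgcagtgcag
Rab38, chr7:88139936-88139965, plus strand: gttgtcagcTGCtctggcTGTgccaaatcc
Of the 59 genes, 15 ended in a pair of adjacent cysteine codons, as Rab2a does, and 15 had that pair followed by 1 to 3 more codons, as in Rab5a, Rab5b and Rab11a. In 20, including Rab3c, Rab6b and Rab33b, 1 codon lay between the cysteine codons at the end. The other 9, including Rab8b, Rab28 and Rab38, ended in a cysteine codon followed by 3 codons, which is the layout of a CAAX box.

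Before treatment effects, the levels in PBS show which Rab genes the injured retina carries most of. Levels of different genes are compared as CPM per kb of exons in the annotation. Rab3a, the main Rab of synaptic vesicles, had the highest level at 57.6 ± 0.83 CPM per kb (SD, n = 3). Next came Rab1a, which acts between endoplasmic reticulum (ER) and Golgi, at 40.4 ± 1.8 CPM per kb, Rab6b, a Golgi Rab enriched in neurons, at 39.2 ± 0.83, and its widely expressed relative Rab6a at 38.8 ± 1.9. These 3 overlapped among the PBS libraries, whereas every library was higher for Rab3a. Rab10, which carries vesicles to the plasma membrane, followed at 30.1 ± 0.91 CPM per kb. At the other end stood Rab42 at 0.16 ± 0.023 CPM per kb, Rab19 at 0.237 ± 0.01, Rab32, a Rab of melanosomes and other lysosome-related organelles, at 0.36 ± 0.074, Rab37, found on secretory granules, at 0.526 ± 0.042, and Rab7b at 0.537 ± 0.095. Rab3a was first with each of 3 gene lengths tried, but other ranks moved. Without exons known only from long-read models, Rab7, the late endosome Rab, moved from rank 6 to 2 and Rab1a from 2 to 5. With the longest transcript as length, Rab10 moved from rank 5 to 9, Rab14 from 17 to 7 and Rab37 from 53 to 48.

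**Figure D1:**
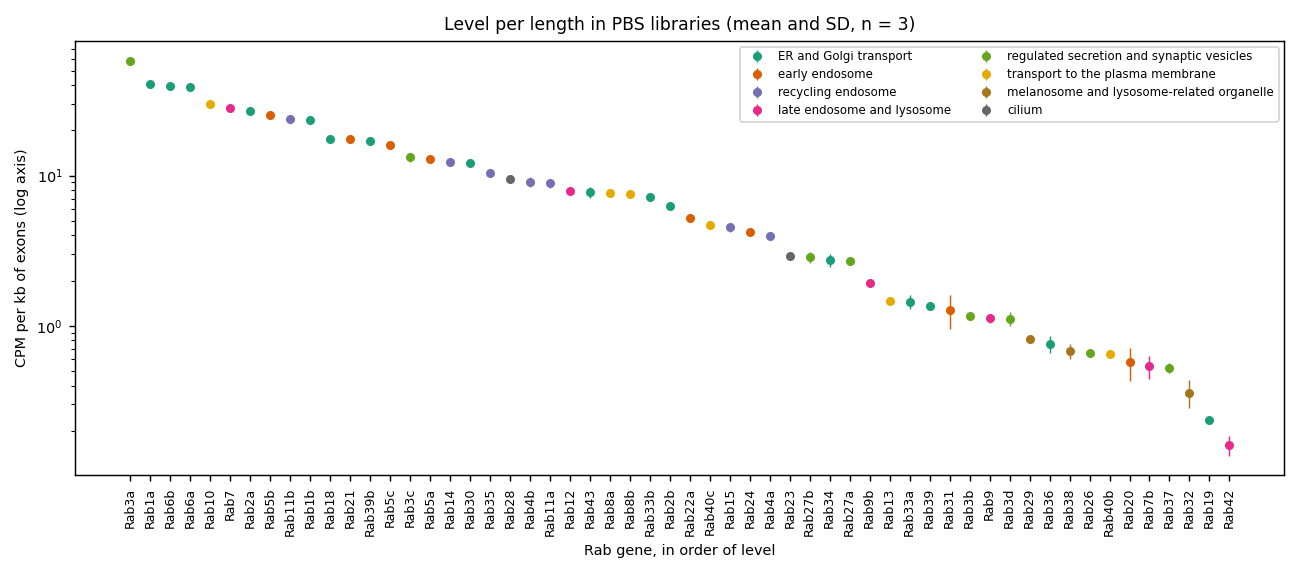
Level of the 56 Rab genes in the 3 PBS libraries, as CPM per kb of exons on a log axis, in descending order, with points for means, bars for SD and colours for roles. Rab3a leads at 57.6 CPM per kb and Rab42 is lowest at 0.16 CPM per kb.

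With fluvastatin against PBS, 5 Rab genes were higher and 10 lower at an FDR under 0.05, by modest amounts of 1.11-fold to 1.31-fold. The higher ones were Rab6b, Rab15, Rab4a, Rab3c and Rab5b. The lower ones were Rab27b, Rab33b, Rab2a, Rab18, Rab28, Rab21, Rab11a, Rab5a, Rab8b and Rab14. The 5 higher genes are 8.93% of the 56 and the 10 lower genes 17.9%. Over the 15322 genes at the same minimum, 11.4% were higher and 12.4% lower, and over all 18818 genes tested 9.36% and 10.2%. The median log2 fold change of the Rab genes was -0.09, beside -0.01 over all genes tested. CPM ranges of the groups did not overlap for 28 of the 56 (50%), beside 42.8% of all genes at the minimum. Without PBS replicate 1 the counts were 2 higher and 5 lower. The higher count was 2 without PBS replicate 2 or fluvastatin replicate 2, and 3 without fluvastatin replicate 3. Rab4a, Rab6b, Rab18, Rab27b, Rab28, Rab2a and Rab33b were called in every fit that left out 1 library. Rab5a and Rab21 lost their call only without PBS replicate 1. Rab11a and Rab14 lost it without PBS replicate 1, PBS replicate 3 or fluvastatin replicate 2, and Rab15 without PBS replicate 1, PBS replicate 2 or fluvastatin replicate 2. Rab3c lost it when PBS replicate 1 or 2 or fluvastatin replicate 2 or 3 was left out, Rab5b when any of these or PBS replicate 3 was, and Rab8b when any library other than PBS replicate 2 was.

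With MBV against the same PBS libraries, 4 Rab genes were higher, Rab31, Rab6b, Rab35 and Rab3c. Another 13 were lower, Rab38, Rab27b, Rab33b, Rab2a, Rab28, Rab18, Rab5a, Rab11a, Rab14, Rab21, Rab1a, Rab1b and Rab30. These are 7.14% and 23.2% of the 56, beside 14.7% higher and 17.2% lower among the 15322 genes at the minimum, and 12% and 14.1% of all 18897 genes tested. The median log2 fold change of the Rab genes was -0.09, beside 0.01 over all genes tested. CPM ranges did not overlap for 26 of the 56 (46.4%), beside 48.5% of all genes at the minimum. The count of higher genes was 2 without PBS replicate 1, PBS replicate 2 or MBV replicate 2. Rab35, Rab6b and 9 of the lower genes were called in every fit that left out 1 library, the exceptions being Rab38, Rab1a, Rab1b and Rab30. Rab31 lost its call without PBS replicate 1, PBS replicate 2 or MBV replicate 2, and Rab1a without PBS replicate 1 or MBV replicate 1. Rab3c lost it when PBS or MBV replicate 1 or 2 was left out, Rab38 when PBS replicate 1 or 3 or MBV replicate 1 or 2 was, Rab1b when any library other than MBV replicate 3 was, and Rab30 when any of the 6 was.

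With MBV against fluvastatin, read here as 1 library set, edgeR called 0 of the 56 Rab genes. DESeq2 also called 0, and 7 had an unadjusted p under 0.05 in edgeR's test. Of all 18721 genes tested, 11 were called (0.0588%). The smallest FDR among Rab genes was 0.262, for Rab1b, and CPM ranges did not overlap for 11 of the 56 (19.6%), beside 18.4% of all genes at the minimum. The median size of the log2 difference among the Rab genes was 0.09 between the treatments, against 0.16 for fluvastatin and 0.18 for MBV from PBS. Over all genes at the minimum these medians were 0.09, 0.16 and 0.19. A pair of genes, Rab3c and Rab6b, was higher and 9 were lower with each treatment against PBS, beside 8.69% of all genes at the minimum higher with both and 9.87% lower with both. These comparisons share their PBS libraries and, as the sets are read here, the set difference.

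**Figure D2:**
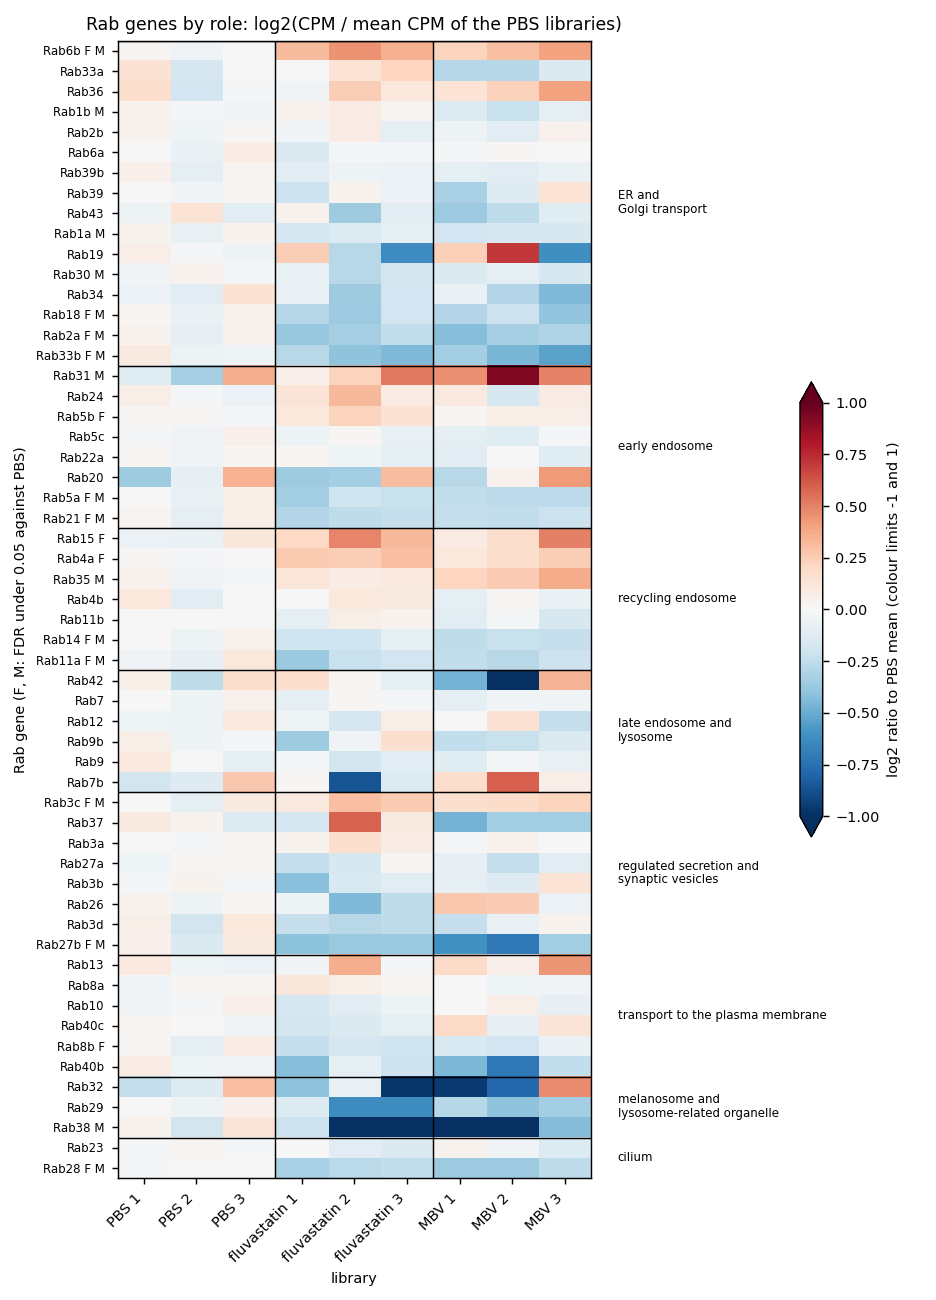
Log2 ratio of each library's CPM to the mean CPM of the 3 PBS libraries for the 56 Rab genes, grouped by role, with red above and blue below PBS and colours saturating at -1 and 1. F and M mark an FDR under 0.05 against PBS for fluvastatin and MBV. The ER and Golgi block holds both the bright red Rab6b row and the blue Rab33b and Rab2a rows.

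Differences from PBS also followed base composition. Across the 56 Rab genes the log2 fold change against PBS rose with the GC content of their exons (Pearson r = 0.472 for fluvastatin and 0.415 for MBV), and across 15294 genes likewise (r = 0.249 and 0.255). For MBV against fluvastatin, read here as sharing a set, r was 0.0049 across the Rab genes and 0.053 across all genes. These are descriptions across genes of the same libraries, which are not independent. The 10 genes lower with fluvastatin had exon GC contents of 39.9% to 46.1% with a median of 40.7%, and the 5 higher ones a median of 51.8%. Every result was therefore also computed with the GC trend removed per library, a check chosen after the data were seen. With it, 2 Rab genes were called higher and 3 lower for fluvastatin, beside 6.44% higher and 6.08% lower of all genes tested, and 3 higher and 8 lower for MBV, beside 10% and 10.7%. Rab6b, Rab3c, Rab2a and Rab33b were called with and without it for each treatment, as were Rab31, Rab1b, Rab27b and Rab28 for MBV. Thus 2 of the 10 lower genes kept their call with fluvastatin and 5 of the 13 with MBV. Calls made only with the GC trend removed were Rab40c, lower with fluvastatin (log2 fold change -0.25, FDR 0.0268), and Rab43 (-0.36, FDR 0.0149), Rab5c (-0.18, FDR 0.0204) and Rab7 (-0.13, FDR 0.0496), lower with MBV. Of the exon bases of Rab43, 74.5% overlap another gene on the same strand, and 17.7% of those of Rab5c overlap a gene on the other strand. Whether the trend arose in library preparation or in the tissue was not tested.

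**Figure D3:**
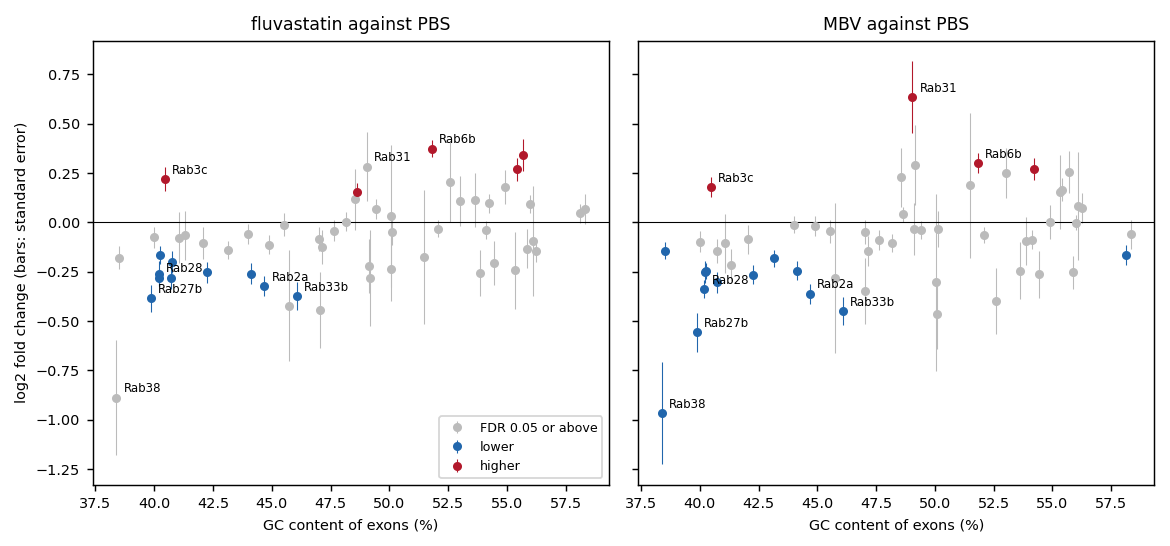
Log2 fold change against PBS of the 56 Rab genes by GC content of their exons, for fluvastatin (left) and MBV (right), with bars for standard errors and colour for genes higher or lower at an FDR under 0.05. Most lower genes lie at or below 46.1% GC, and Rab3c at 40.5% GC is a higher gene among them.

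Among the 16 members of ER and Golgi transport, 1 was higher and 3 lower with fluvastatin, and 1 was higher and 6 lower with MBV. In either direction, 23.8% of all genes at the minimum were called with fluvastatin and 31.8% with MBV. Rab6b stood at 307, 294 and 301 CPM after PBS, at 375, 409 and 385 CPM after fluvastatin, and at 351, 369.96 and 396 CPM after MBV. Every library of either treatment was above every PBS library. On the log2 scale the change was 0.37 (SE 0.045, FDR 0.000967) with fluvastatin and 0.30 (SE 0.05, FDR 0.00301) with MBV, the smallest FDR of any Rab gene with fluvastatin, and it was called without each library in turn. Rab2a stood at 133, 122 and 134 CPM after PBS, at 99.6, 103 and 109 CPM after fluvastatin, and at 96.5, 103 and 105 CPM after MBV. Rab2a acts on membranes between ER and Golgi, and all treated libraries lay below the PBS libraries. On the log2 scale the change was -0.32 (SE 0.052, FDR 0.00292) with fluvastatin and -0.36 (SE 0.051, FDR 0.0016) with MBV. Rab33b stood at 26.9, 24.5 and 24.5 CPM after PBS, at 20.9, 19.2 and 18.7 CPM after fluvastatin, and at 20.1, 18.5 and 17.5 CPM after MBV. Rab33b, a Golgi Rab that also binds the autophagy protein Atg16l1, was likewise lower in all 6 treated libraries, with log2 fold changes of -0.37 (SE 0.071, FDR 0.00598) for fluvastatin and -0.45 (SE 0.073, FDR 0.00278) for MBV. Its exons share 18.7% of their bases with a gene on the other strand, and whether counting used strand is not given in the sources used here.

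Rab18, which acts at the ER and on lipid droplets, was also lower in this group. Rab18 stood at 129, 122 and 131 CPM after PBS, at 104, 98.7 and 111 CPM after fluvastatin, and at 104, 110.4 and 96.8 CPM after MBV. The groups did not overlap, with log2 fold changes of -0.28 (SE 0.054, FDR 0.00586) for fluvastatin and -0.30 (SE 0.055, FDR 0.00454) for MBV, and with the GC trend removed the FDR was 0.136 and 0.12. Rab1a stood at 188, 173 and 187 CPM after PBS, at 161, 167 and 170.2 CPM after fluvastatin, and at 159.7, 164 and 163 CPM after MBV. Rab1a starts traffic from the ER to the Golgi and was lower with MBV, with a log2 fold change of -0.18 (SE 0.044, FDR 0.0155), while with fluvastatin the value was a log2 fold change of -0.14 (SE 0.046, FDR 0.0587). The Rab1a value with MBV was -0.05 with the GC trend removed (FDR 0.497). Its relative Rab1b had a log2 fold change of -0.16 with MBV (FDR 0.0391) and 0.05 with fluvastatin (FDR 0.532). The MBV value of Rab1b had an FDR of 0.0519 with DESeq2 and was -0.30 with the GC trend removed (FDR 0.00567). Rab30, a Golgi Rab, had a log2 fold change of -0.14 with MBV (FDR 0.0358), which turned to 0.059 once the GC trend was removed. Rab34, which acts in early steps of cilium formation and in lysosome position, did not pass the test. Rab34 stood at 8.48, 8.22 and 9.76 CPM after PBS, at 8.36, 6.88 and 7.72 CPM after fluvastatin, and at 8.4, 7.22 and 6.5 CPM after MBV. The ranges overlapped, with log2 fold changes of -0.21 (SE 0.11, FDR 0.237) for fluvastatin and -0.26 (SE 0.12, FDR 0.145) for MBV.

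Early endosome members moved in opposite directions. Rab5 proteins drive fusion of early endosomes, and of the 3 genes Rab5a was lower, Rab5b higher with fluvastatin, and Rab5c not called unless the GC trend was removed. Rab5a stood at 89.95, 85.5 and 94.3 CPM after PBS, at 71.1, 78.3 and 76.9 CPM after fluvastatin, and at 75.7, 75.1 and 75.1 CPM after MBV. All 6 treated libraries were below PBS, with log2 fold changes of -0.25 (SE 0.055, FDR 0.0104) for fluvastatin and -0.26 (SE 0.047, FDR 0.00398) for MBV. Rab5b stood at 123, 123 and 120.3 CPM after PBS, at 131, 142 and 135 CPM after fluvastatin, and at 124, 128 and 128 CPM after MBV. Treated libraries were above PBS in both groups, but the difference passed the test only with fluvastatin, with log2 fold changes of 0.15 (SE 0.046, FDR 0.0378) for fluvastatin and 0.04 (SE 0.039, FDR 0.482) for MBV. The direct difference of MBV from fluvastatin for Rab5b did not pass (FDR 0.481). Rab21 stood at 91.1, 83.6 and 93.5 CPM after PBS, at 72.95, 75.1 and 76.2 CPM after fluvastatin, and at 75.7, 75.3 and 77.03 CPM after MBV. Rab21, which moves integrins through endosomes, was below PBS in all treated libraries, with log2 fold changes of -0.26 (SE 0.053, FDR 0.00765) for fluvastatin and -0.24 (SE 0.05, FDR 0.00784) for MBV. With the GC trend removed, FDRs were 0.205 and 0.118 for Rab5a, 0.058 for Rab5b with fluvastatin, and 0.0645 and 0.0872 for Rab21. About 17.4% of Rab5a exon bases overlap a gene on the other strand.

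Rab31 stood at 7.51, 6.48 and 10.5 CPM after PBS, at 8.49, 9.53 and 11.7 CPM after fluvastatin, and at 11.2, 15.5 and 11.5 CPM after MBV. Rab31, which carries cargo between the trans-Golgi network and endosomes, rose most among the members, with a log2 fold change of 0.64 (SE 0.18, FDR 0.032) with MBV, while with fluvastatin the value was a log2 fold change of 0.28 (SE 0.18, FDR 0.303) and the ranges overlapped. Markers of microglia and infiltrating leukocytes summed to 49.4 to 73.4 CPM in PBS and 42.9 to 53.5 CPM with fluvastatin. With MBV they summed to 58.8, 44.99 and 171 CPM in replicates 1, 2 and 3. Of these 12 markers, edgeR called 2 lower with fluvastatin, beside 12.4% of all genes at the minimum, and 0 with MBV. Their part in the Rab31 result was not tested, and 1, 3 and 0 of them were at 3 counts or fewer throughout PBS, fluvastatin and MBV.

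Recycling endosomes return receptors and adhesion molecules to the cell surface, and 4 of these 7 members were called with fluvastatin and 3 with MBV, beside 23.8% and 31.8% of all genes at the minimum. Rab4a stood at 22.9, 22.5 and 22.8 CPM after PBS, at 27.3, 26.99 and 27.9 CPM after fluvastatin, and at 24.4, 25.7 and 26.9 CPM after MBV. Rab4a, of the fast recycling route, was above PBS in all treated libraries, with log2 fold changes of 0.27 (SE 0.056, FDR 0.00882) for fluvastatin and 0.17 (SE 0.058, FDR 0.0638) for MBV. Rab15 stood at 23.4, 23.2 and 26.3 CPM after PBS, at 27.9, 34.1 and 30.3 CPM after fluvastatin, and at 25.8, 27.4 and 34.4 CPM after MBV. Rab15, another endosomal Rab of neurons, was higher with fluvastatin, with a log2 fold change of 0.34 (SE 0.082, FDR 0.0162), and overlapped PBS with MBV, a log2 fold change of 0.26 (SE 0.11, FDR 0.108). Rab35 stood at 45.6, 43.4 and 44.1 CPM after PBS, at 48.2, 46.7 and 47.6 CPM after fluvastatin, and at 51.5, 52.9 and 57.3 CPM after MBV. Rab35, which sorts endosomal cargo and is linked to neurite outgrowth, was higher with MBV, with a log2 fold change of 0.27 (SE 0.055, FDR 0.00716), and with fluvastatin the value was a log2 fold change of 0.10 (SE 0.049, FDR 0.206).

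The lower recycling members were Rab11a and Rab14. Rab11a stood at 79.8, 77.3 and 87.8 CPM after PBS, at 63.02, 70.1 and 71.5 CPM after fluvastatin, and at 68.7, 67.3 and 70.8 CPM after MBV. Rab11a, the Rab of the slow recycling route and of axonal integrin transport, was below PBS in all treated libraries, with log2 fold changes of -0.26 (SE 0.064, FDR 0.0188) for fluvastatin and -0.25 (SE 0.055, FDR 0.0102) for MBV. Rab14 stood at 189, 183 and 195 CPM after PBS, at 165, 164 and 176 CPM after fluvastatin, and at 159, 162 and 161 CPM after MBV. Rab14, between endosomes and Golgi, was also below PBS throughout, with log2 fold changes of -0.17 (SE 0.045, FDR 0.0273) for fluvastatin and -0.25 (SE 0.04, FDR 0.00267) for MBV. With the GC trend removed, none of these 5 recycling genes was called for either treatment, and the log2 fold change of Rab14 with fluvastatin became 0.00016. Rab11b, the form prominent in brain, had log2 fold changes of 0.0032 with fluvastatin (FDR 0.969) and -0.11 with MBV (FDR 0.12).

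Of 8 members of regulated secretion, Rab3c was higher and Rab27b lower with each treatment, and Rab3a, Rab3b, Rab3d, Rab26, Rab27a and Rab37 were not called. That is 25% of these members with each treatment, beside 23.8% of all genes at the minimum with fluvastatin and 31.8% with MBV. Rab3c stood at 159.9, 148 and 169 CPM after PBS, at 170.3, 196 and 190.1 CPM after fluvastatin, and at 178, 180.3 and 185 CPM after MBV. Rab3c is one of the Rab3 proteins of synaptic vesicles. All treated libraries were above PBS, with log2 fold changes of 0.22 (SE 0.062, FDR 0.0315) for fluvastatin and 0.18 (SE 0.05, FDR 0.0292) for MBV, and its log2 fold change was 0.38 and 0.35 with the GC trend removed. Rab27b stood at 35.4, 30.9 and 36.3 CPM after PBS, at 25.7, 26.5 and 26.4 CPM after fluvastatin, and at 22.4, 20.8 and 26.9 CPM after MBV. Rab27b, which docks secretory granules and exosome-bearing endosomes at the plasma membrane, was below PBS in all 6 treated libraries. On the log2 scale the difference was -0.39 (SE 0.068, FDR 0.00418) with fluvastatin and -0.56 (SE 0.098, FDR 0.00394) with MBV, and the FDR with the GC trend removed was 0.074 and 0.0311. Rab27a stood at 12.4, 12.9 and 13.1 CPM after PBS, at 10.9, 11.4 and 12.9 CPM after fluvastatin, and at 12.1, 10.9 and 11.9 CPM after MBV. Rab27a, its close relative, had log2 fold changes of -0.12 (SE 0.088, FDR 0.366) for fluvastatin and -0.15 (SE 0.076, FDR 0.195) for MBV and did not pass.

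Rab28, a Rab of the photoreceptor cilium whose loss leads to cone-rod dystrophy, was among the most even results. Rab28 stood at 123, 124 and 124 CPM after PBS, at 98.9, 103 and 105 CPM after fluvastatin, and at 95.99, 96.1 and 104 CPM after MBV. The PBS values lay close together and all treated libraries were below them, with log2 fold changes of -0.28 (SE 0.043, FDR 0.00234) for fluvastatin and -0.34 (SE 0.045, FDR 0.00123) for MBV. With the GC trend removed, FDRs were 0.113 and 0.0424. Photoreceptor markers were called higher for 2 and lower for 2 of 12 genes with fluvastatin, and lower for 4 with MBV. Over all genes at the minimum, 11.4% were higher and 12.4% lower with fluvastatin, and 14.7% and 17.2% with MBV. The part of these markers in the Rab28 result was not tested. Rab8b stood at 38.9, 36.2 and 40.8 CPM after PBS, at 32.9, 34.3 and 33.7 CPM after fluvastatin, and at 34.8, 33.8 and 36.96 CPM after MBV. Rab8b, which takes vesicles to the plasma membrane and cilium, was lower with fluvastatin, with a log2 fold change of -0.20 (SE 0.058, FDR 0.0346), and with MBV the value was a log2 fold change of -0.14 (SE 0.061, FDR 0.116). With DESeq2 the fluvastatin value had an FDR of 0.0611, and with the GC trend removed it was -0.05 (FDR 0.657).

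Rab32 and Rab38 bring pigment enzymes to melanosomes, and both had low counts. Rab38 stood at 3.38, 2.9 and 3.61 CPM after PBS, at 2.84, 1.16 and 1.36 CPM after fluvastatin, and at 1.17, 1.51 and 2.44 CPM after MBV. Fluvastatin replicate 1 lay just under the lowest PBS library, and no treated library reached PBS. On the log2 scale the change was -0.97 (SE 0.26, FDR 0.0248) with MBV and -0.89 (SE 0.29, FDR 0.058) with fluvastatin, which passed with DESeq2 at an FDR of 0.0373, with the replicate number as a block at 0.0248 and without fluvastatin replicate 1 at 0.000646. With the GC trend removed, Rab38 passed with neither treatment. The fluvastatin value was then -0.69 (FDR 0.161), and the MBV value had an FDR of 0.0744. Rab32 stood at 1.2, 1.3 and 1.75 CPM after PBS, at 1.07, 1.35 and 0.721 CPM after fluvastatin, and at 0.731, 0.822 and 1.97 CPM after MBV. Rab32 overlapped between groups, with log2 fold changes of -0.42 (SE 0.28, FDR 0.341) for fluvastatin and -0.28 (SE 0.38, FDR 0.622) for MBV, the latter with an FDR of 0.0467 without MBV replicate 3. Pigment cell markers moved with Rab38, since 6 of 9 were lower with fluvastatin and 7 of 9 with MBV, with median log2 fold changes of -1.67 and -1.73. Their summed level was 147 to 213 CPM in PBS, 60.4 to 77.4 CPM with fluvastatin and 51.7 to 76.2 CPM with MBV, and none was at 3 counts or fewer throughout a group. Retinal pigment epithelium markers did not move that way, with 3 of 6 higher with fluvastatin and 1 of 6 higher with MBV. The part of pigment cells in the Rab38 result was not tested. The 6 late endosome and lysosome members had no call with either treatment, though Rab7 was called lower with MBV once the GC trend was removed. Of all genes at the minimum, 23.8% were called with fluvastatin and 31.8% with MBV. Rab42 and Rab7b of these 6 had low mean levels in PBS, of 0.41 and 2.65 CPM.

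**Figure D4:**
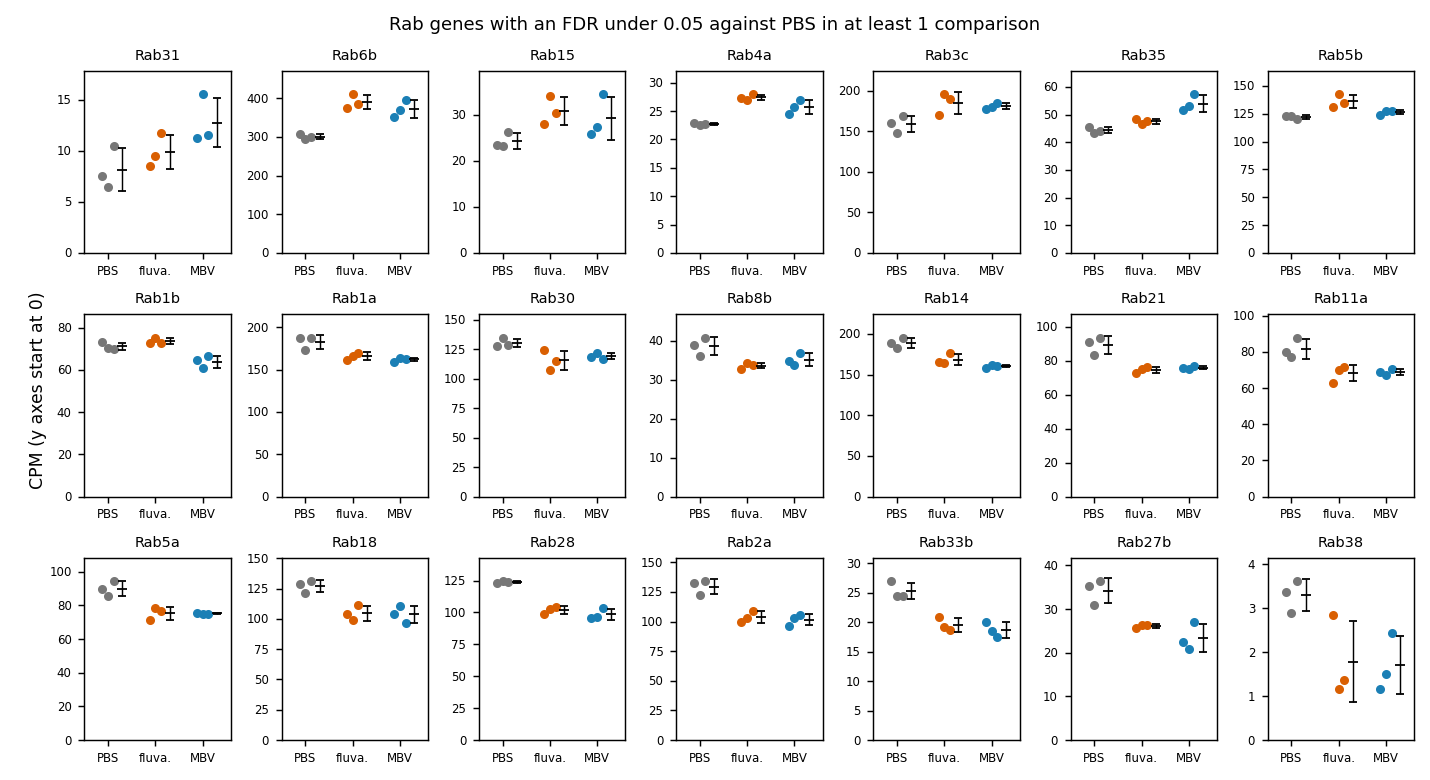
CPM in each library of the 21 Rab genes with an FDR under 0.05 against PBS for at least 1 treatment, with grey PBS, orange fluvastatin and blue MBV points, and black bars for mean and SD (n = 3). Most shifts are small beside the level, as for Rab6b from 294 to 307 CPM in PBS to 375 to 409 CPM with fluvastatin. Rab38 has the lowest CPM of the 21 genes.

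By the layout of the coding end, calls were found in every class. With fluvastatin, 4 of 20 members with 1 codon between the end cysteine codons were higher and 3 lower, and with MBV 2 and 3. In the CAAX-like class 0 of 9 were higher and 3 lower with each treatment. Of the 15 members ending in adjacent cysteine codons, 0 were higher and 1 lower with fluvastatin, and 2 were higher and 3 lower with MBV. Of the 12 in which 1 to 3 codons follow the adjacent pair, 1 was higher and 3 lower with fluvastatin, and 0 were higher and 4 lower with MBV. Of all genes at the minimum, 11.4% were higher and 12.4% lower with fluvastatin, and 14.7% and 17.2% with MBV. No difference between these classes was tested.

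Where the genome carries several genes for 1 Rab number, their CPM ratio shows a shift within a family that library scaling cannot make. There are 21 such pairs in 14 families, and the ratio separated the groups without overlap in 15 pairs for fluvastatin against PBS, in 11 for MBV against PBS and in 7 for MBV against fluvastatin. Over all 116319378 pairs of genes at the minimum with a count in every library, the ratio did so in 38.3%, 44.1% and 17.3%. Larger families, such as Rab3 and Rab5, give several pairs that share a gene, so the 21 pairs are not independent. With 3 samples per group the exact permutation test (two-sided) cannot go below p = 0.1, and the smallest adjusted value over 63 tests was 0.191, so none passed. The CPM ratio of Rab6b to Rab6a was 1.68, 1.68 and 1.56 after PBS, 2.26, 2.26 and 2.13 after fluvastatin, and 1.94, 2.01 and 2.16 after MBV. The mean log2 ratio was higher by 0.43 with fluvastatin and 0.31 with MBV (exact p = 0.1 each). The CPM ratio of Rab5b to Rab5a was 1.37, 1.44 and 1.28 after PBS, 1.84, 1.82 and 1.75 after fluvastatin, and 1.64, 1.7 and 1.7 after MBV. This ratio was higher by 0.41 and 0.31, and here the fluvastatin libraries were also all above the MBV libraries. The CPM ratio of Rab2b to Rab2a was 0.269, 0.277 and 0.262 after PBS, 0.343, 0.359 and 0.301 after fluvastatin, and 0.35, 0.315 and 0.342 after MBV. The difference was 0.31 and 0.32. Exon GC content also differs within these pairs, with 51.8% for Rab6b and 43.99% for Rab6a, and 48.6% for Rab5b and 42.3% for Rab5a, but 45.5% for Rab2b and 44.7% for Rab2a. Reads shared by near-identical copies could be split between relatives in these counts. A gene on the other strand overlaps 59.3% of Rab2b exon bases, 17.6% of those of Rab6a and 17.4% of those of Rab5a.

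**Figure D5:**
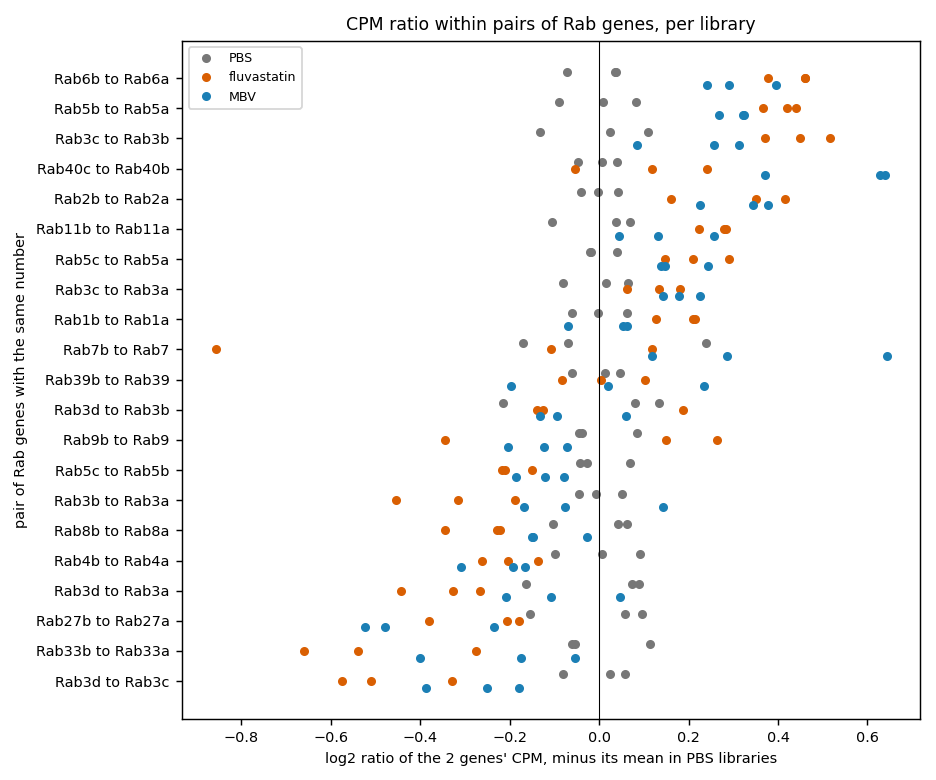
Log2 ratio of CPM within the 21 pairs of Rab genes that share a number, per library and relative to its mean in PBS, with 1 point per library coloured by treatment. Rab6b to Rab6a and Rab5b to Rab5a lie to the right of PBS, and Rab3d to Rab3c and Rab33b to Rab33a to the left with fluvastatin.

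Rab proteins depend on the enzymes and carriers that prenylate and recycle them, so 15 such genes were followed as a list. With fluvastatin 2 were higher and 5 lower (median log2 fold change -0.12), and with MBV 1 was higher and 7 lower (median -0.18). Of all genes at the minimum, 11.4% were higher and 12.4% lower with fluvastatin, and 14.7% and 17.2% with MBV. With the GC trend removed these became 2 and 1 for fluvastatin, and 1 and 4 for MBV. Fdps, farnesyl diphosphate synthase, makes the isoprenoid from which geranylgeranyl lipid is built and is a target of the sterol-sensing factor SREBP2. Fdps stood at 24.3, 24.5 and 24.9 CPM after PBS, at 34.5, 31.7 and 33.2 CPM after fluvastatin, and at 22.98, 22.4 and 20.9 CPM after MBV. All 3 fluvastatin libraries were above the other 6. Of the 133 genes tested from the 4 partner lists, Fdps alone was called for MBV against fluvastatin, read here as sharing a set. Fdps had a log2 fold change of -0.58 there (SE 0.066, FDR 0.0261). Against PBS it was higher with fluvastatin, with a log2 fold change of 0.43 (SE 0.057, FDR 0.00132), called without each library in turn, and the value with MBV was a log2 fold change of -0.16 (SE 0.059, FDR 0.076), which passed with the GC trend removed (FDR 0.0408). The call between the treatments was lost without MBV replicate 1 (FDR 0.128), fluvastatin replicate 2 (0.0754) or fluvastatin replicate 3 (0.174), at log2 values between -0.54 and -0.61 over the left-out libraries.

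Rabac1, a Golgi-located binder of prenylated Rab proteins, was lower. Rabac1 stood at 45.4, 41.5 and 46.7 CPM after PBS, at 31.7, 31.9 and 37.3 CPM after fluvastatin, and at 29.2, 27.95 and 30.6 CPM after MBV. The groups did not overlap, with log2 fold changes of -0.41 (SE 0.074, FDR 0.00476) for fluvastatin and -0.61 (SE 0.062, FDR 0.000535) for MBV. Gdi2 stood at 249.5, 241 and 247 CPM after PBS, at 204, 218 and 219.8 CPM after fluvastatin, and at 205, 205 and 209 CPM after MBV. Gdi2, a ubiquitous GDI named here after its values were seen, was lower, with log2 fold changes of -0.20 (SE 0.043, FDR 0.00915) for fluvastatin and -0.26 (SE 0.037, FDR 0.00156) for MBV, and the former had an FDR of 0.0596 without PBS replicate 1. Gdi2 did not pass the threshold with the GC trend removed (FDR 0.556 and 0.124).

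Other partners of the Rab cycle moved in both directions. Of 35 tested activators, which load GTP, 6 were higher and 6 lower with fluvastatin, and 9 higher and 4 lower with MBV. Of 38 GTPase-activating proteins, which end the GTP-bound state, 5 were higher and 4 lower, then 6 and 9. Of 45 effectors and kinases, 12 were higher and 6 lower, then 15 and 7. The shares over all genes at the minimum were those given for the prenylation list. Activators, with the GC trend removed, had 4 higher and 1 lower with fluvastatin and 4 and 3 with MBV, GTPase-activating proteins 2 and 2, then 3 and 2, and effectors and kinases 6 and 2, then 8 and 4. Bicd2 stood at 133, 124 and 128 CPM after PBS, at 164, 199 and 190.01 CPM after fluvastatin, and at 169.8, 191 and 171 CPM after MBV. Bicd2, the adaptor that links Rab6 vesicles to dynein, was higher in all treated libraries, with log2 fold changes of 0.52 (SE 0.066, FDR 0.00116) for fluvastatin and 0.45 (SE 0.054, FDR 0.000848) for MBV. Mical3, a Rab6 and Rab8 effector, had log2 fold changes of 0.38 with fluvastatin (FDR 0.00114) and 0.39 with MBV (FDR 0.000969). Tbc1d22b, a GTPase-activating protein of the Golgi, had a log2 fold change of 0.41 with fluvastatin (FDR 0.00107). Rabgap1l stood at 163, 161 and 149.9 CPM after PBS, at 113, 132 and 127 CPM after fluvastatin, and at 106, 101 and 106 CPM after MBV. Rabgap1l, a GTPase-activating protein, was lower, with log2 fold changes of -0.35 (SE 0.062, FDR 0.0042) for fluvastatin and -0.61 (SE 0.049, FDR 0.000332) for MBV, the former with an FDR of 0.076 with the GC trend removed. Dennd1b, an activator of Rab35, was lower with MBV at -0.38 on the log2 scale (FDR 0.000657).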

How the data were processed

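Total RNA was extracted from whole retinas with TRIzol, made into TruSeq Total RNA libraries and sequenced in paired ends on a NextSeq500. The authors aligned reads to GRCm39 with CLC Genomics Grid Workbench and deposited raw counts per gene, unnormalized, in 4 tables that each compare 2 groups. Fold changes and p-values in those tables are the authors' comparisons and were not used. In the table of the combined treatment, 6 count columns name no library and were not used, so the comparisons planned with that group were not run. Here, counts of the 9 named libraries were tested with edgeR 4.0.16 (TMM, quasi-likelihood, genes with a count in at least 1 library of the 2 groups), with Benjamini-Hochberg FDR over all genes and a threshold of 0.05, in R 4.3.3. DESeq2 1.42.0 was an alternative. SE is the log2 fold change divided by the root of F. Exon length, GC content, overlaps and coding ends came from the GRCm39 sequence and GENCODE M39, where 25493 of 25655 genes and all 59 Rab genes matched. The scripts were tested on simulated data. The members, gene lists and alternatives were chosen with earlier results of these data known. Named in full were Rab genes past the threshold, at most 10 in each direction, with Rab27a, Rab27b, Rab32, Rab34 and Rab38 in any case, the 5 highest and 5 lowest levels per length, and at most 3 partner genes per comparison. A further partner gene is not reported here. Members with counts near the minimum of 10 have wide errors.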

Additional observations from a re-analysis of the deposited data

How the results depend on the processing

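The counts of Rab genes called against PBS depended on the threshold and on 1 library more than on the tool. With fluvastatin, 5 higher and 10 lower became 2 and 6 at an FDR under 0.01, 3 and 5 with a fold change of at least 1.2 required as well, and 2 and 3 with the GC content offset, which was added after seeing the data. With MBV, 4 higher and 13 lower became 2 and 8 at an FDR under 0.01. The lower count was 7 with the fold change required and 8 with the GC content offset. Leaving out 1 library at a time gave 2 to 5 higher and 5 to 12 lower with fluvastatin, and 2 to 4 higher and 9 to 15 lower with MBV. RLE size factors, library size alone, the filter of 10 counts in 3 libraries, DESeq2 and 1 fit of the 3 groups kept each count within 1.5 times. MBV against fluvastatin gave 0 in each direction under every alternative run.

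The replicate numbers were also fitted as a block. The pairing has no basis in the labels beyond a shared number, and correlations of same-numbered deviations were -0.267 to 0.114. The block gave 4 higher and 11 lower for fluvastatin, and 3 higher and 11 lower for MBV, 0 for MBV against fluvastatin, and for Fdps between the treatments an FDR of 0.165. It ended the calls of Rab5b with fluvastatin (FDR 0.0502) and of Rab1b (0.0724), Rab30 (0.0614) and Rab31 (0.0665) with MBV, and added Rab38 with fluvastatin (0.0248).

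The log2 fold change of Rab14 with fluvastatin turned to 0.00016 and that of Rab30 with MBV to 0.059 with the GC content offset, which removes the trend with GC by construction. Over 51 results for named genes, 572 of 663 alternative values kept their direction and side of the threshold, 84 no longer passed, 5 newly passed and 2 reversed. The alternatives differed in this. With the GC content offset alone, 28 of the 51 were kept, 20 no longer passed, 1 newly passed and 2 reversed, while RLE size factors kept all 51. The median level of Rab genes per length in PBS was 5.73 CPM per kb, 7.35 with the longest transcript and 7.91 without long-read transcript models. The comparisons with the combined treatment, and those averaged over library sets, were not run. Members under 5 CPM in PBS, 14 of 56, have the widest errors at this depth.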
